A study of Mus musculus with 4 samples.

Results

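The 39 *Hox* genes were examined in RNA sequencing libraries of FACS-enriched (sorted by fluorescence) tdTomato-positive cells from the basal telencephalon of mouse embryos at E16, of which the preoptic area (POA) is a part. They are the protein-coding genes whose GENCODE M21 symbol is *Hoxa*, *Hoxb*, *Hoxc* or *Hoxd* followed by a number, and all 39 were among the 55573 genes in the count lists, without any filter on low counts. The cells are labelled as premature interneurons of the *Hmx3* lineage. There were 2 *Dnmt1* WT and 2 *Dnmt1* KO libraries. Embryos of both genotypes carried *Hmx3-Cre* and the *tdTomato* reporter on a C57BL/6J background, and the KO embryos also carried *Dnmt1 loxP2* alleles, in which Cre removes exons 4 and 5 and leaves a null allele. The day of insemination was counted as E1. The deletion was restricted to *Hmx3*-expressing cells and their progeny. The sample titles also carry the word loxp for WT. The sorted cells came from 12 WT and 6 KO embryos, combined by genotype, and the libraries are called technical duplicates of pools in the study's methods and biological replicates in the series record, so that SDs and p-values describe the spread between libraries and not necessarily between embryos.

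*Hox* genes encode homeodomain transcription factors that give cells a position along the head-to-tail axis. They lie in 4 clusters, and their order in a cluster follows the order of their expression domains: paralogue groups 1 to 3 are known for the hindbrain, the middle groups for the caudal hindbrain and cervical to thoracic cord, and groups 9 to 13 for the lower cord, limbs and genital region. The telencephalon develops rostral to all of these domains. Outside their domains the clusters are known as targets of Polycomb repression, and DNMT1 is the enzyme that copies CpG methylation after replication.

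The libraries held between 8075102 and 9995968 counts. *Dnmt1*, the targeted gene, had 3103 and 4557 reads for WT and 2383 and 2552 for KO. The groups did not overlap, with a log2 fold change of -0.56, a standard error of 0.14 and an edgeR adjusted p of 0.0511. Over 12 other settings *Dnmt1* passed the threshold in 8, with adjusted p from 1.96e-07 to 0.521, and the count covers the whole gene, not the deleted exons alone. *Hmx3*, whose promoter activity marked the cells, was at 84.3 ± 8.11 CPM (SD, n = 2, CPM being the count relative to the TMM-scaled library total) for WT and at 82.8 ± 15.5 CPM (SD, n = 2) for KO. WT replicate 1 stood apart in its share of mitochondrial rRNA, at 8.66% against 1.51% to 2.32% in the other libraries. The forebrain and GABAergic genes *Dlx1*, *Nkx2-1*, *Gad1* and *Gad2* were present in every library, as were markers of oligodendrocyte precursors (*Pdgfra*, 726 ± 9.88 CPM, SD, n = 2, in WT).

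*Hox* genes were close to silent in WT and in KO cells. Of the 39 genes, 32 had 0 counts in all 4 libraries, which is 82.1% of them, against 23.4% of the 21980 protein-coding genes. The other 7 genes shared 17 reads in all 4 libraries. No *Hox* gene had reads in both libraries of a genotype, while 66.3% of protein-coding genes had reads in both WT libraries and 68.6% in both KO libraries. A count of 0 allows up to 3 counts, which is 0.294 to 0.372 CPM per library at these depths. Per kilobase of exons this limit is at most 0.0619 RPKM (CPM per kilobase of exon) for the longest, *Hoxa3*, and 0.426 RPKM for the shortest, *Hoxa6*, with a median of 0.151 RPKM over the 39 genes. For comparison, the protein-coding genes that passed the expression filter had a median of 6.22 RPKM in WT and 6.31 RPKM in KO, and 90% of them lay above 0.579 RPKM in WT. The limits, like all intervals given here, cover counting error only.

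**Figure D1:**
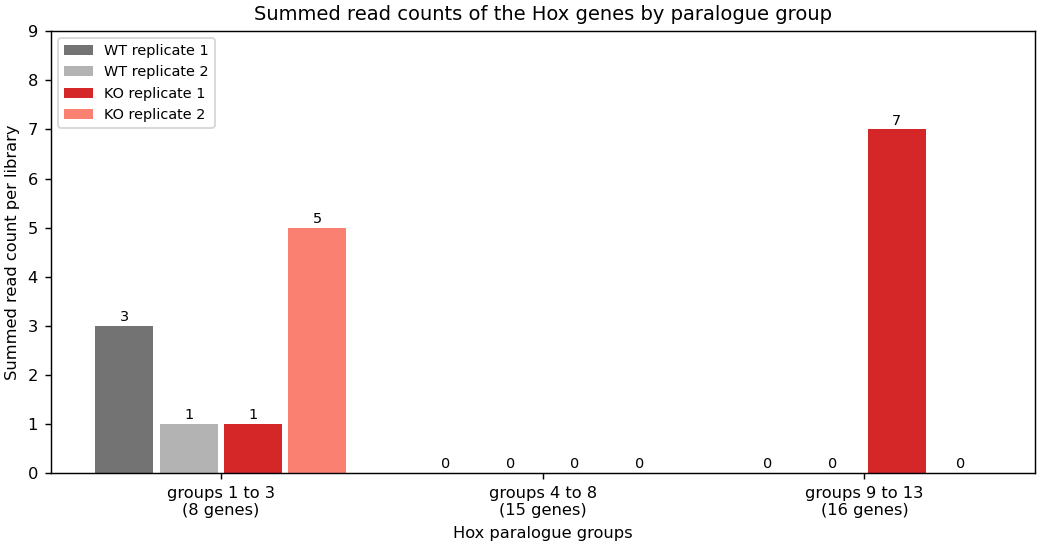
Summed read counts of the *Hox* genes in each library (bars, 4 libraries), for paralogue groups 1 to 3, 4 to 8 and 9 to 13. The highest bar is at 7 reads, in KO replicate 1 for groups 9 to 13, and no library has a read in groups 4 to 8.

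Reads were found at genes of groups 1, 2 and 9 only, and those of group 9 came from KO replicate 1 alone. The 8 genes of groups 1 to 3 held 10 reads, 4 in WT and 6 in KO. By library these were 3 and 1 in WT and 1 and 5 in KO, so that the genotypes overlapped. *Hoxb2*, a hindbrain patterning gene, had 1 read in WT replicate 1 and 1 read in KO replicate 1. *Hoxb1*, the marker of the fourth rhombomere, had 1 read in WT replicate 2. *Hoxa2*, which patterns the second branchial arch, and *Hoxd1* had 1 read each, in KO replicate 2. The 15 genes of groups 4 to 8 had 0 reads in every library. This block includes *Hoxb4*, *Hoxa5* and *Hoxc8*, genes of the caudal hindbrain and the cord. Of the 16 genes of groups 9 to 13, *Hoxa9* had 6 reads and *Hoxb9* 1 read, all in KO replicate 1, and the other 14 had 0 reads.

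*Hoxa9*, which acts in the thoracolumbar cord and in blood progenitors, was the single member over 3 counts in any library. Its counts were 0 and 0 in WT and 6 and 0 in KO, so that KO replicate 2 lay with the WT libraries. With this count taken as the limit after it was seen, 56 of the protein-coding genes (0.255%) had 0 counts in 3 libraries and at least 6 in the other, against 1 of 39 *Hox* genes (2.56%). Reads in a single library, of any number, were found for 5 of the 39 genes (12.8%) and for 4.55% of the protein-coding genes, and neither difference was tested. Most protein-coding genes had reads in both libraries of a genotype (66.3% in WT and 68.6% in KO) and could not enter either count. No *Hox* gene did, so that these shares do not set *Hox* genes beside equally silent genes. Leaving out KO replicate 1 leaves *Hoxa9* without a read.

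By cluster, the 11 *Hoxa* genes (chr6:52155590-52260880 of GRCm38, minus strand) held 2 reads in WT and 10 in KO. The 10 *Hoxb* genes (chr11:96194316-96368256, plus strand) held 2 in WT and 2 in KO. The A cluster thus held most of the reads. The 9 *Hoxd* genes (chr2:74668310-74765142, plus strand) held 0 in WT and 1 in KO. The 9 *Hoxc* genes (chr15:102921103-103036852, plus strand) had 0 reads in every library. The *Hoxc* cluster has no genes of groups 1 to 3.

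Summed over the 39 genes, WT replicate 1 had 3 reads, WT replicate 2 had 1, KO replicate 1 had 8 and KO replicate 2 had 5. The KO libraries were above the WT libraries, at 0.991 CPM of unscaled counts (95% exact Clopper-Pearson interval 0.428 to 1.95) and 0.567 (0.184 to 1.32) against 0.335 (0.0691 to 0.979) and 0.10004 (0.00253 to 0.557). The intervals of the single libraries overlapped. The ratio of the pooled rates was 3.65 (95% exact conditional interval 1.13 to 15.4, counting error only), from 13 reads in KO and 4 in WT. Without *Hoxa9*, a choice made after its values were seen, the ratio was 1.96 (0.499 to 9.15). On the TMM-scaled CPM sums the log2 ratio was 1.67, and it was between 1.00 (without WT replicate 2) and 2.93 (without WT replicate 1) when each library was left out. With 2 libraries per genotype, this sum over the members was given no test.

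Markers of other cells differed between the same pools, to be read beside the 7.33% higher and 0.57% lower over all tested genes (6.1% and 1.34% with DESeq2). All 10 astrocyte markers were higher in KO, with a summed level of 234 to 243 CPM in the WT and 3867 to 4071 CPM in the KO libraries, and *Gfap* was at 0 in WT. All 7 mural cell markers were higher (62.7 to 71.5 CPM in WT and 417 to 422 CPM in KO, with *Acta2* at 0 in WT), as were 6 of 11 oligodendrocyte lineage markers (1381 to 1452 CPM and 2113 to 2162 CPM). Such glial and vascular cells belong to the dissociated brain, and the sort for tdTomato would remove those without the reporter. Of the markers tested, 2 of 4 mesenchymal (34.9 to 37.5 CPM summed in WT and 58.6 to 62.1 CPM in KO) and 2 of 7 microglia genes (32.8 to 37.8 CPM and 68.003 to 74.7 CPM) were higher, and 0 of 6 endothelial genes were called (17.8 to 18.03 CPM and 18.3 to 20.8 CPM, 3 at an unadjusted edgeR p under 0.05, and 0 with DESeq2). With DESeq2 the higher calls fell to 0 for the mesenchymal and to 1 for the microglia genes. Erythroid markers, from the blood, had 1 of 5 lower (30.8 to 44.7 CPM and 18.9 to 19.2 CPM summed). Choroid plexus markers had 1 of 4 lower (47.4 to 62.8 CPM and 6.30 to 8.81 CPM summed over the list). This was the transthyretin gene *Ttr*, with 329 and 564 reads for WT and 8 and 10 for KO. Among 9 neuron and GABAergic neuron markers, 2 were lower (3610 to 3753 CPM and 2534 to 2580 CPM). DESeq2 called 2 erythroid and 4 neuron markers lower. In pooled cells, fewer cells of a type and less RNA per cell cannot be told apart. The part of these cells in the *Hox* reads of the KO libraries was not tested.

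No *Hox* gene passed the expression filter of edgeR, so that 0 of the 39 genes were tested and 0 were called higher or lower in KO. Over all 16832 genes tested, 7.33% were higher and 0.57% lower in KO, with a threshold of 0.05 on the edgeR adjusted p. At an unadjusted p under 0.05 were 22.7% of the tested genes. When every gene with at least 1 read was fitted, the 7 *Hox* genes with reads entered and 0 were called, where 5.97% of the 30006 genes fitted were higher and 1.91% lower. In DESeq2, which called 6.1% of 18893 genes higher and 1.34% lower, 0 of the 7 were called either. Of the 7 genes, 0 had an unadjusted p under 0.05 in edgeR or in DESeq2. The smallest adjusted p without the filter was 0.533, for *Hoxa9*, and DESeq2 gave the 7 genes no adjusted p. At these counts a difference between genotypes was not detectable for any member, and the values do not show that the genotypes are alike below the limits above.

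A gain of reads from near silence in WT was seen at other genes. At most 3 counts in both WT libraries were found for 7312 protein-coding genes, all 39 *Hox* genes among them. Of the 7312 genes, 10.4% had over 3 counts in at least 1 KO library, against 1 of 39 *Hox* genes (2.56%), *Hoxa9*. At least 10 counts in both KO libraries were reached by 1.81% of them and by 0 of the 39 *Hox* genes. A share of 1.81% is close to 0 for a list of 39 genes, and neither difference was tested. These cut points were set after the values were seen.

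RefSeq promoter windows of GRCm38.p6 (250 bases before to 50 after a start site) were available for 22 of the 39 genes, with 24 windows. The *Hoxc* cluster was covered by the window of *Hoxc4* alone, and the *Hoxb* cluster by those of *Hoxb1*, *Hoxb4* and *Hoxb8*. The other starts of these clusters could not be compared. CpG dinucleotides, the sites that DNMT1 methylates, numbered 4 to 45 per window with a median of 14.5, against a median of 7 over all 32851 promoter windows. The available window with the most CpG sites in each of the 4 clusters, and that of *Hoxa9* as the member with the most reads, are shown 5′ to 3′. Every CpG is in capitals, to let CpG-dense and CpG-poor starts of *Hox* genes be compared. They are *Hoxa13* (chr6:52260831-52261130, minus strand), *Hoxb4* (chr11:96318017-96318316, plus strand), *Hoxc4* (chr15:103034145-103034444, plus strand), *Hoxd13* (chr2:74667975-74668274, plus strand) and *Hoxa9* (chr6:52227321-52227620, minus strand).
Hoxa13: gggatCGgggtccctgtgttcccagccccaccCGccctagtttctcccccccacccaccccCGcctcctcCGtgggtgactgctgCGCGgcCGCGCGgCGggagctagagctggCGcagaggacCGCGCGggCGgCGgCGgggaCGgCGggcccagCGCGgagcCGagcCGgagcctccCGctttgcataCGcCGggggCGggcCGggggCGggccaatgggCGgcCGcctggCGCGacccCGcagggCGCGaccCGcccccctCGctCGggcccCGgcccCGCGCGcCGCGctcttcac
Hoxb4: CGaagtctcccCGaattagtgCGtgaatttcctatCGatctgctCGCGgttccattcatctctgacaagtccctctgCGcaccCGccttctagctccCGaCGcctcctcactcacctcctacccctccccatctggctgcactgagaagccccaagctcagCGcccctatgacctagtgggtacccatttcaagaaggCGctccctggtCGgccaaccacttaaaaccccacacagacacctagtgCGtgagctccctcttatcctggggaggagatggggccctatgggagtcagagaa
Hoxc4: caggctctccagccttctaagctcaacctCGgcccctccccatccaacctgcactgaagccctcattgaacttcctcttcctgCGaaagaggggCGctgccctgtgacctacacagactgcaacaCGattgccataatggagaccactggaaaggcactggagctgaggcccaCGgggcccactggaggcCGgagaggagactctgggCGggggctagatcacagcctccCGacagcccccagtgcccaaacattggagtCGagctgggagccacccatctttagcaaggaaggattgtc
Hoxd13: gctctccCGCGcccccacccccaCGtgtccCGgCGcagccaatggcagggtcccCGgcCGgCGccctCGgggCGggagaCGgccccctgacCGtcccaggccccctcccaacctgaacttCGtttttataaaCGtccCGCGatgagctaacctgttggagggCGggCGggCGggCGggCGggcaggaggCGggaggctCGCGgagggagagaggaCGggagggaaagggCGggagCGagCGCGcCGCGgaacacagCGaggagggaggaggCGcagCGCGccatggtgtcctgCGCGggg
Hoxa9: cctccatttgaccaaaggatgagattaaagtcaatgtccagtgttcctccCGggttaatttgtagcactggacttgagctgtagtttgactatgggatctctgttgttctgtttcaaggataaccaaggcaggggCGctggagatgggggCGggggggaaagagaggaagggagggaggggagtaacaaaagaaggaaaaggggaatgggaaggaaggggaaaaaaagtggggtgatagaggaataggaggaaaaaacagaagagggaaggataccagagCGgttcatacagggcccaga

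*Hoxa13* had 45 CpG sites in its window and *Hoxd13* 37, and both genes, which pattern digits and the genital tubercle, had 0 reads in every library. *Hoxb4* had 14 and *Hoxc4* 9, also with 0 reads. *Hoxa9* had 4, the fewest of any window together with *Hoxd4* and 1 of the windows of *Hoxd11*, which both had 0 reads. *Hoxd1* had 29 CpG sites and 1 read, so that genes with and without reads were found at both CpG-dense and CpG-poor starts. Read counts carry no DNA methylation, which was not analysed here. The letters TGATNNAT, a joint binding sequence of PBX and HOX proteins, were found on either strand in 4 of the 24 windows (16.7%), those of *Hoxa2*, *Hoxb1*, *Hoxb8* and *Hoxd11*, against 8.85% of all windows. The letters TATAAA were found in 4 windows (16.7%), those of *Hoxa10*, *Hoxb8*, *Hoxd4* and *Hoxd13*, against 13.6%. Such matches are descriptions of the sequence only.

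Other genes inside the clusters were also near 0, while most of the genes flanking them were expressed. Between the first and the last *Hox* gene of the 4 clusters, 46 other genes are annotated, and 41 of them had 0 counts in all libraries, where 60.8% of genes that are not protein-coding were at 0. They include 16 short genes of the class misc_RNA, 15 of them at 0, and 7 miRNA genes, all at 0, beside 72.1% of both classes over the genome, and mRNA libraries measure such short RNAs poorly. *Hotairm1*, *Haglr* and *Gm27861* had 1 read each, *Gm14424* 3 and the pseudogene *Gm11539* 4, and none exceeded 3 counts in a library. *Hotair*, a non-coding RNA of the *Hoxc* cluster, and the antisense genes *Hoxaas3*, *Hoxb3os* and *Hoxb5os* had 0 reads. The hairpin genes of *Mir10a*, *Mir10b*, *Mir196a-1*, *Mir196a-2* and *Mir196b* were also at 0.

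**Figure D2:**
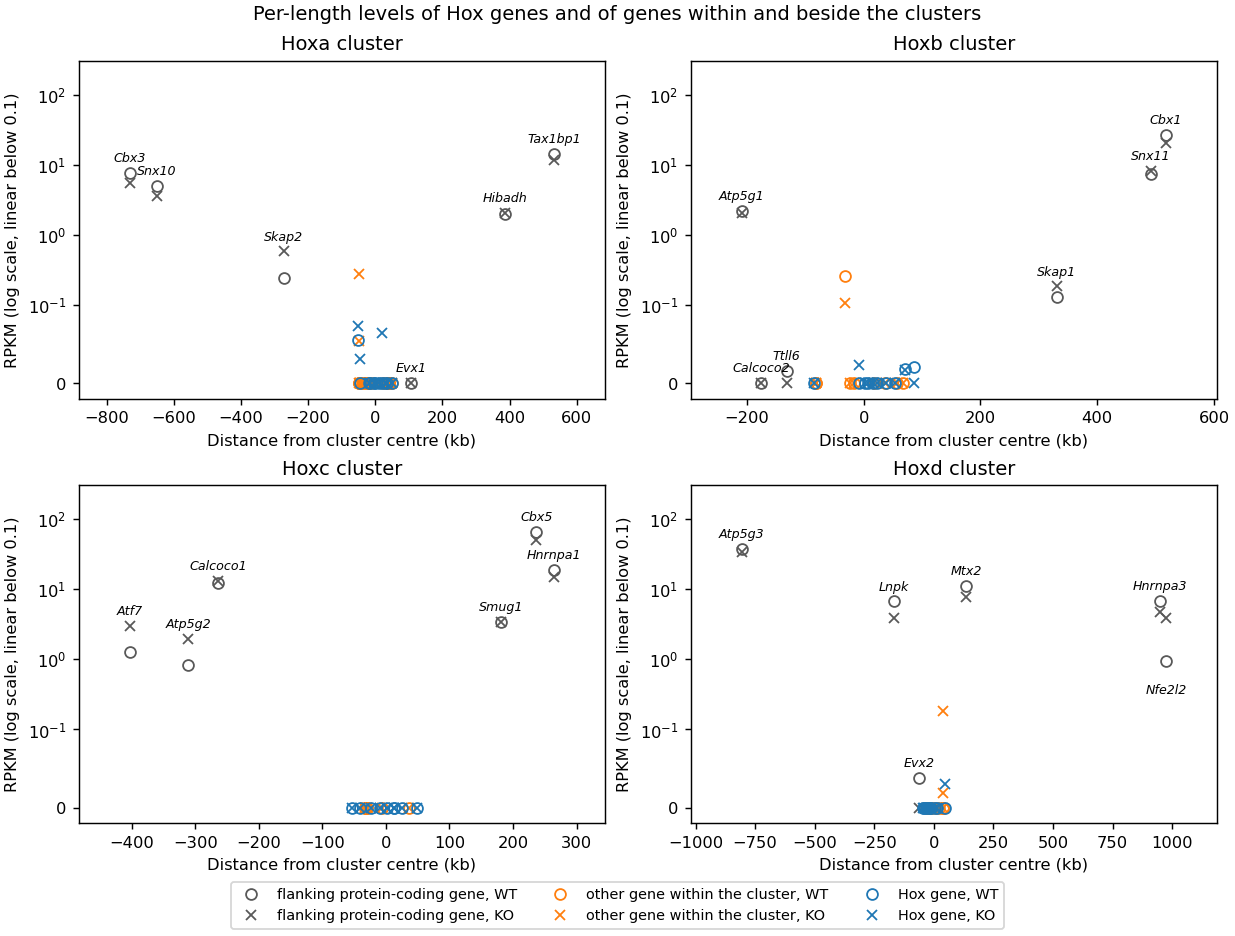
Mean RPKM (2 libraries per genotype) of *Hox* genes (blue), other genes within each cluster (orange) and the nearest 3 protein-coding genes on each side (grey), WT as circles and KO as crosses, against distance from the cluster centre. All *Hox* genes lie in the linear range near 0, while 20 of the 24 flanking genes passed the expression filter and reached up to 64.3 RPKM.

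Of the 24 protein-coding genes nearest to the clusters, 3 on each side, 20 passed the expression filter. *Mtx2*, a mitochondrial import gene 60.7 kb from the *Hoxd* cluster, had 364 and 366 reads for WT and 254 and 237 for KO. *Lnpk*, which shapes the endoplasmic reticulum and lies 88.9 kb beyond the other end, had 625 and 458 reads for WT and 313 and 316 for KO. The KO libraries of both genes lay below the WT libraries, and neither gene passed the test (edgeR adjusted p = 0.147 and 0.117). *Atf7*, a transcription factor gene beside the *Hoxc* cluster, went the other way without passing, with 162 and 82 reads for WT and 303 and 269 for KO (log2 fold change 1.24, standard error 0.37, edgeR adjusted p = 0.0931). The uncalled *Skap2* and *Atp5g2* had log2 fold changes of 1.24 and 1.22. *Cbx5*, which encodes the heterochromatin protein HP1 alpha, had the highest level of the flanking genes with 64.3 RPKM in WT and 49.9 RPKM in KO. The 4 genes with at most 3 counts in every library were *Evx1*, *Evx2*, *Ttll6* and *Calcoco2*, each the nearest or the second nearest gene on its side. *Evx1* and *Evx2*, homeobox genes next to the group 13 ends of *Hoxa* and *Hoxd*, had 0 counts in all libraries and 1, 2, 0 and 0 counts. *Nfe2l2*, which encodes the oxidative stress factor NRF2, lies 910 kb from the *Hoxd* cluster and rose from 31 and 34 reads for WT to 110 and 150 for KO (log2 fold change 2.05, standard error 0.30, edgeR adjusted p = 0.00425). Of the 20 tested genes it was the 1 that passed, which is near the 7.33% over all genes. At an unadjusted edgeR p under 0.05 were also *Cbx3*, *Snx10*, *Cbx1*, *Lnpk* and *Mtx2*, lower in KO, and *Skap2* and *Atf7*, higher in KO. Over all tested genes 22.7% were under this p, and the flanking genes were not tested as a set.

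The annotation left most *Hox* exons countable. The merged exons ranged from 874 to 6014 bases. Of the 39 genes, 16 share exonic bases with another annotated gene, and the share was largest in *Hoxd3* (62.8%), *Hoxb3* (52.9%) and *Hoxd4* (52.3%), where reads may be left unassigned or be counted for the partner. The partners of these 3 genes within the clusters were at 0 counts except *Haglr*, which had 1 read. Stretches of 50 bases that also occur in transcripts of other, non-overlapping genes made up at most 1.27% of a *Hox* gene, so that shared homeobox sequence covered little of any member.

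The listed protein partners of HOX factors all passed the expression filter. PBX and MEIS/PKNOX proteins are homeodomain cofactors that bind DNA together with HOX proteins and also have functions without them. All 9 genes of this list were tested, and 0 of 9 were called in either direction (0 at an unadjusted p under 0.05, and 0 with DESeq2). Beside 7.33% higher and 0.57% lower over all tested genes, 0 of 9 is near the background. Their log2 fold changes ran from -0.34 to 0.35 with a median of -0.15, beside -0.03 over all tested genes. *Meis2*, a gene of forebrain neuron progenitors, had 1213 and 1177 reads for WT and 1060 and 1155 for KO. *Pbx3* and *Pknox1* had the smallest p-values of the list, with log2 fold changes of -0.34 (standard error 0.17, edgeR adjusted p = 0.261) and -0.33 (standard error 0.16, edgeR adjusted p = 0.266). Without WT replicate 2, *Pbx3* passed the threshold (-0.47, edgeR adjusted p = 0.0247).

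The other homeobox genes descended from the same ancestral cluster were split. ParaHox genes and *Evx* genes are relatives of *Hox* genes, and *Cdx1*, *Cdx2* and *Cdx4* activate *Hox* genes in the posterior embryo. Of the 8 genes, 6 had at most 3 counts in every library, the 3 *Cdx* genes, *Pdx1*, *Evx1* and *Evx2*. *Gsx1* and *Gsx2*, ParaHox genes that specify progenitors of the ventral telencephalon, were present. *Gsx1* had 55 and 87 reads for WT and 46 and 52 for KO, and *Gsx2* 34 and 31 in WT and 20 and 38 in KO. The groups of *Gsx2* overlapped. Their log2 fold changes were -0.46 (standard error 0.31, edgeR adjusted p = 0.422) and -0.13 (standard error 0.46, edgeR adjusted p = 0.9003), and 0 of the 2 tested genes were called (0 at an unadjusted p under 0.05, and 0 with DESeq2). Beside 7.33% higher and 0.57% lower over all tested genes, 0 of 2 is the background.

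**Figure D3:**
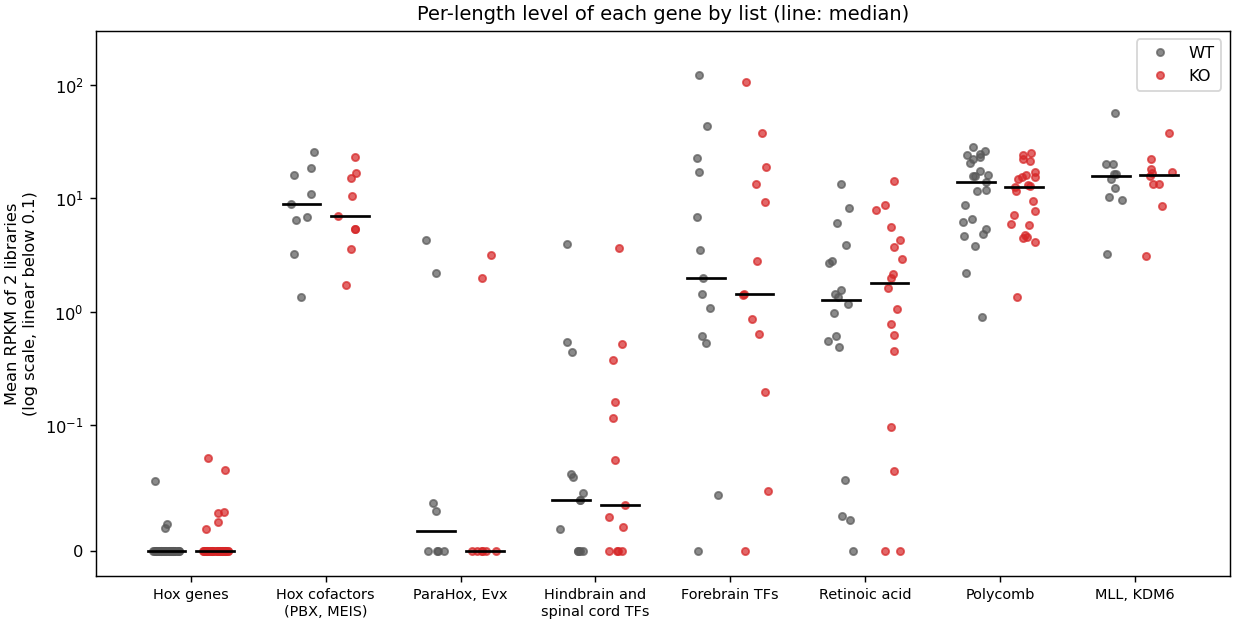
Mean RPKM of each gene in WT (grey) and KO (red), 2 libraries each, for the *Hox* genes and 7 related lists, with lines at the medians. The median *Hox* gene is at 0 in both genotypes, and the Hox cofactors lie between 1.35 and 25.8 RPKM in WT.

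Transcription factors of the hindbrain and spinal cord were low beside those of the forebrain. Of 13 hindbrain and cord genes, 3 passed the filter, which 61.2% of protein-coding genes passed, and 0 were called (0 at an unadjusted p under 0.05, and 0 with DESeq2). With 7.33% higher and 0.57% lower over all tested genes, 0 of 3 is near the background. *Egr2*, a hindbrain segment gene that myelinating glia also use, had 9 and 26 reads for WT and 11 and 11 for KO (log2 fold change -0.56, standard error 0.62, edgeR adjusted p = 0.633). Its sign turned without WT replicate 2 (0.16). *Pax8* and *Lbx1* had 0 counts in every library, and *Tlx3*, *Phox2a* and *Lmx1b* had at most 4. *En1* and *En2*, which mark the midbrain and anterior hindbrain, did not pass the filter. *En1* was at 1, 2, 7 and 0 counts and *En2* at 1, 0, 4 and 3 (WT replicates 1 and 2, then KO).

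Of 13 forebrain genes, 11 passed the filter, and 1 was higher and 1 lower in KO, also with DESeq2, beside 7.33% higher and 0.57% lower over all tested genes. At an unadjusted p under 0.05 there were 6 of the 11, beside 22.7% of all tested genes, and the median log2 fold change was -0.27. Counts this small are no result about the list. *Dlx1*, a gene of GABAergic progenitors, had the highest level with 124 RPKM in WT and 107 RPKM in KO. *Emx2*, which patterns the dorsal telencephalon, rose from 16 and 17 reads for WT to 75 and 73 for KO (log2 fold change 2.21, standard error 0.36, edgeR adjusted p = 0.00746). *Six6*, a gene of the hypothalamus and eye field, fell from 30 and 80 reads for WT to 3 and 11 for KO (log2 fold change -2.85, standard error 0.65, edgeR adjusted p = 0.0341). The groups of both genes did not overlap.

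Retinoic acid is the signal that switches on *Hox* genes in the hindbrain and cord, and 18 genes of its synthesis, binding, breakdown and receptors were listed. Of these, 14 were tested, and 2 were higher and 0 lower in KO (3 and 0 with DESeq2), beside 7.33% higher and 0.57% lower over all tested genes. At an unadjusted p under 0.05 there were 4 of the 14, near the 22.7% of all tested genes, and the median log2 fold change was 0.11. *Aldh1a1*, an enzyme that makes retinoic acid from retinal, was at 0 in both WT libraries and had 63 and 76 counts in the KO libraries. This is at least 23.8-fold higher in KO when 3 counts are taken for each WT library (edgeR adjusted p = 0.000832). *Dhrs3*, a retinal reductase that limits retinoic acid synthesis, rose from 15 and 10 reads for WT to 184 and 224 for KO (log2 fold change 4.06, standard error 0.35, edgeR adjusted p = 0.000244). *Aldh1a2*, the enzyme of the embryonic trunk mesoderm, had 1 read in WT replicate 1 and 0 elsewhere. *Aldh1a3*, the enzyme of the ventral forebrain, had 16 and 32 reads for WT and 3 and 5 for KO without passing the threshold (log2 fold change -2.46, edgeR adjusted p = 0.0592). Targets of retinoic acid were not examined as a set. As examples of them, *Cyp26a1* had 0, 1, 0 and 0 counts, and *Rarb* had 33 and 84 in WT and 91 and 90 in KO (log2 fold change 0.73, edgeR adjusted p = 0.279). The uncalled *Crabp2*, *Stra6* and *Cyp26b1* had log2 fold changes of -1.22, -0.45 and 0.11. *Rarg*, a receptor, was at 38, 86, 134 and 145 counts (1.26, edgeR adjusted p = 0.052). *Aldh1a1* and *Dhrs3* thus rose in the libraries in which astrocyte and mural cell markers rose, and the part of those cells was not tested.

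**Figure D4:**
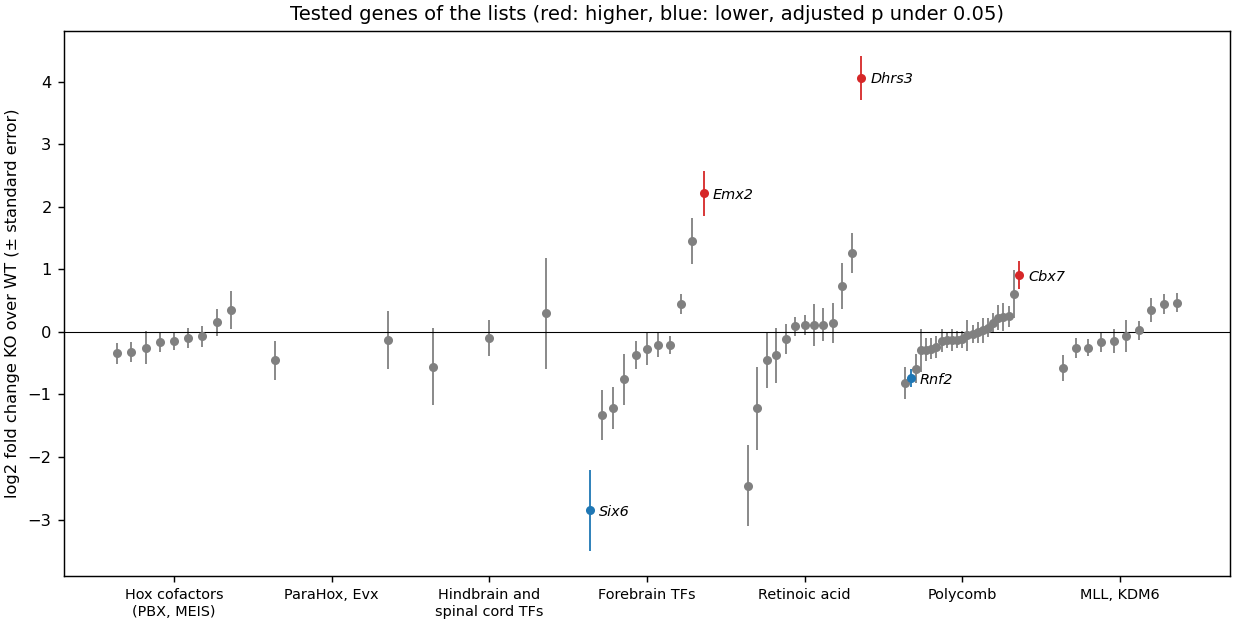
Log2 fold change of KO over WT with its standard error (edgeR, 2 libraries per genotype) for each tested gene of 7 lists, in red or blue where the adjusted p was under 0.05. *Aldh1a1* is left out because both WT libraries are at 0, and *Emx2* and *Dhrs3* rise while *Six6* falls.

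The listed chromatin regulators that act on *Hox* clusters all passed the expression filter. Of 23 Polycomb genes, 1 was higher and 1 was lower in KO (0 and 2 with DESeq2), beside 7.33% and 0.57% over all tested genes, which makes these calls of single genes and no result about the list. The median log2 fold change was -0.12, and 4 of the 23 were at an unadjusted p under 0.05, beside 22.7% of all tested genes. *Rnf2*, which encodes the ubiquitin ligase RING1B of Polycomb complex 1, fell from 989 and 1155 reads for WT to 616 and 616 for KO (log2 fold change -0.74, standard error 0.15, edgeR adjusted p = 0.0177). The call of *Rnf2* was lost without KO replicate 1 (-0.78, edgeR adjusted p = 0.141) and without KO replicate 2 (-0.68, edgeR adjusted p = 0.293), at a fold change of similar size. *Cbx7*, a chromobox protein that reads H3K27me3, had 99 and 168 reads for WT and 210 and 263 for KO (0.90, standard error 0.23, edgeR adjusted p = 0.0496). It did not pass with DESeq2 (adjusted p = 0.0621), with at least 10 counts in every library (edgeR adjusted p = 0.0505), or without KO replicate 1 (0.0745) or KO replicate 2 (0.3497), while its log2 fold change was 0.80 to 1.02 in these 4 settings. *Ezh2*, the H3K27 methyltransferase, had 943 and 939 reads for WT and 731 and 785 for KO (-0.27, edgeR adjusted p = 0.373).

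Of 10 genes of the MLL complexes, which oppose Polycomb at *Hox* genes, and of the H3K27 demethylases, 0 were called (3 at an unadjusted p under 0.05, and 0 called with DESeq2), and the median log2 fold change was -0.11. Among all genes tested, 7.33% were higher, 0.57% lower and 22.7% at an unadjusted p under 0.05, so that these counts lie near the background. *Kdm6b*, an H3K27 demethylase, had 564 and 656 reads for WT and 705 and 925 for KO (log2 fold change 0.47, standard error 0.16, edgeR adjusted p = 0.129). *Kmt2a*, the H3K4 methyltransferase MLL1, had 2437 and 2518 reads for WT and 2939 and 3631 for KO (0.45, standard error 0.16, edgeR adjusted p = 0.139). Both genes passed without WT replicate 1 (edgeR adjusted p = 0.0108 and 2.01e-05), and *Kdm6b* also without WT replicate 2 (edgeR adjusted p = 0.0489). *Kmt2a* passed in a further 2 settings, library size as the only scaling (edgeR adjusted p = 0.0467) and the replicate block with length and GC correction (edgeR adjusted p = 0.02197). *Psip1*, which encodes the MLL partner LEDGF, was the other gene at an unadjusted p under 0.05, named after its values were seen, with 2782 and 2336 reads for WT and 1770 and 1595 for KO (-0.57, standard error 0.21, edgeR adjusted p = 0.153).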

How the data were processed

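RNA of FACS-enriched tdTomato-positive cells was sequenced in 4 libraries, 2 *Dnmt1* WT and 2 *Dnmt1* KO. The authors deposited unnormalised counts of reads for each Ensembl identifier, as 1 list per library. The submitters' processing notes name CASAVA 1.8.2, STAR 2.5.2a, featureCounts 1.5.0-p1 and the builds GRCm38 and mm10, while the strand setting, the handling of reads over 2 genes and the annotation release are not given in the sources used here.

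Of 55573 gene identifiers, 55480 were matched to GENCODE M21 (GRCm38). R 4.3.3 with edgeR 4.0.16 and limma 3.58.1 served to filter genes by expression, scale libraries by TMM and fit genotype by the quasi-likelihood method, with Benjamini-Hochberg adjustment over 16832 genes and a threshold of 0.05. RPKM used merged exon lengths. On simulated counts, edgeR recovered 81% of 200 genes changed by 2 on the log2 scale among 16295 genes, with 6.90% of calls false, and DESeq2 recovered 79% among 16832 genes, with 10.7% false.

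All *Hox* genes enter the counts and sums, and the single values of a few genes are not reported here. Flanking genes were chosen by position, and of each of 7 pathway lists up to 4 called genes with the largest change, or else the 2 tested genes with the smallest p, were named, with a few others for their role after their values were seen. Members and lists, including 9 marker lists, were chosen with earlier results of these data known. DESeq2 1.42.0 was an alternative, with others given in the closing section. No gene was left out of the libraries.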

Additional observations from a re-analysis of the deposited data

How the results depend on the processing

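The *Hox* genes called higher or lower in KO remained 0 under all 12 alternative fits, but in 1 of them only, that with no filter, did *Hox* genes have an adjusted p. DESeq2 fitted 7 and gave them none, and the other 10 fitted none, so that these 11 say nothing about stability. The log2 ratio of the summed *Hox* CPM stayed above 0 in its 7 alternatives. Both KO libraries lay above both WT libraries, so that leaving out a library could not turn its sign and says nothing about stability. The ratio was 1.68 with DESeq2's size factors, 1.84 with library size, 0.75 without *Hoxa9* (added after the values were seen) and 1.00 to 2.93 when each library was left out. The ratio could not be computed over filtered members, since none passed.

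Over all tested genes, 1233 were higher and 96 lower (92.8% higher). With DESeq2 253 were lower (82.0% higher), with no filter 573 (75.8%), and with at least 10 counts in every library 52. Corrected for length and GC content, 909 were lower (66.6% higher). Library size as the only scaling moved the median log2 fold change by 0.11. Leaving out each library gave 900 to 2578 higher and 51 to 2180 lower genes, with most of both kinds without a WT library (2578 higher and 1300 lower without WT replicate 1, and 2029 and 2180 without WT replicate 2). These fits assume that the lone library varies like the other genotype, but the chi-square per degree of freedom was 39.8 between the WT and 3.54 between the KO libraries, so that calls gained without a WT library, those of *Pbx3*, *Kdm6b* and *Kmt2a* included, rest on the closer KO pair.

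Under a replicate block, 1625 were higher and 619 lower (72.4% higher), and together with the length and GC correction 2000 and 1259 (61.4%). Libraries with the same number deviated together with a correlation of 0.108 across genes, and with 2 pairs they share only a number. Without the filter, edgeR's prior degrees of freedom were infinite, and the fit used the trend over genes in place of each gene's spread.

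With each library left out, *Gsx2* ran from -0.59 to 0.23 (above 0 without KO replicate 1 and, at 0.11, without WT replicate 1) and *Egr2* from -1.02 to 0.16 (above 0 without WT replicate 2). *Dhrs3*, *Emx2* and *Nfe2l2* passed in all 12 alternatives and *Aldh1a1* and *Six6* in all 11 that fitted them. The cause of these shifts was not tested.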
